A study of Mus musculus with 12 samples.

Results

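Chromatin accessibility was compared between bone marrow graft-derived brain macrophages and the host microglia of the same mice after a systemic endotoxin challenge. The assay was ATAC-seq, which marks open DNA by the places where the Tn5 enzyme can cut and attach adapters, and a peak is a stretch with many such cuts. The comparison covered every merged peak with a count above 10 tags (mapped, deduplicated reads) in at least 1 of the 6 libraries from challenged mice. This left 49180 of the 54953 peaks in that table, out of 115241 merged peaks in both tables of the series. Of the 12 samples, 6 came from challenged mice (3 CD45.1 and 3 CD45.2 libraries), and the other 6 from untreated mice served only for the comparison with rest.

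All mice were C57BL/6J, labelled wild type, had been irradiated with 950 cGy and had received congenic bone marrow, so that the controls carry the irradiation and the graft too. CD45.1 cells were of donor origin and are called graft cells, and CD45.2 cells were of recipient origin and are called host microglia. Both populations were sorted from the brain of each animal, from mice 1 to 3, which received lipopolysaccharide (LPS) at 2.5 mg/kg 12 h before analysis, and from mice 4 to 6, which were left untreated. The labels give 3.5 or 9 months between transplantation and analysis without assigning mice to an interval, and the study's text names the longer one for the challenge. The host microglia had survived the irradiation, so neither population is that of an unmanipulated brain. In a bulk library, fewer cells with an open peak and a less open peak in every cell cannot be told apart.

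Microglia are the resident macrophages of the brain parenchyma and derive from yolk sac precursors, whereas macrophages that replace them after irradiation and bone marrow transfer derive from haematopoietic stem cells. The zinc-finger factor Sall1 is a hallmark of yolk sac-derived microglia. LPS is sensed by Tlr4 with its co-receptors Cd14 and Ly96, and the signal runs through NF-kappaB, AP-1 and interferon-regulatory factors to cytokine, chemokine and interferon-stimulated genes. In macrophages such factors bind mostly at distal enhancers that the lineage factor PU.1 has opened together with AP-1 and CEBP proteins, so distal peaks carry much of what distinguishes macrophage populations.

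Both populations had open chromatin at some of the genes that define microglia. Tags summed over the peaks nearest to P2ry12, a purinergic receptor of microglial processes, were 133, 146 and 132 in the graft libraries of mice 1 to 3 and 123, 129 and 98.6 in the host libraries, after division by the size factor of each library (normalized tags). Differences are given as the log2 of graft over host, so that positive values mean higher in graft cells. The difference at P2ry12 was 0.24 (SE 0.20, adjusted p = 0.641), and those at Tmem119 (0.53, adjusted p = 0.221) and Cx3cr1 (−0.13, adjusted p = 0.838) did not pass either. Sall1 separated the populations, with sums of 19.7, 42.3 and 26.9 in graft and 257, 277 and 219 in host cells. The libraries held 2966364 to 6556594.5 tags (fewest in the host library of mouse 1), with a median of 8 to 23.5 tags per merged peak, and every comparison of weak peaks is limited by these counts. Along the first principal component (54.7% of variance) graft and host libraries lay apart, and libraries correlated more within (r of 0.853 to 0.914) than between them (0.692 to 0.761).

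The mouse sequence (build mm9, plus strand, 5′ to 3′) is shown for called peaks of genes described below, to give the letters of sites whose opening differed between the populations. They were taken from the called peaks with the smallest adjusted p among those of at most 300 bases that overlapped no annotated exon, and are not the peaks with the largest differences. Capitals mark matches, on either strand, to short patterns of 4 macrophage factors, namely AP-1 with a spacer of 1 base (TGANTCA), CEBP (TTGCNNAA), PU.1 (GAGGAAGT) and RUNX (TGTGGTT). A match describes letters and not a bound site. The first set was more open in graft cells and comprises an intron of the adaptor gene Stap1, the promoter of the heparan sulfate sulfotransferase gene Hs3st1, an intron of Mdfic, an intergenic peak nearest to G530011O06Rik and an intron annotated to the fatty acid and lipoprotein receptor gene Cd36.

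Stap1, chr5:86507746-86508029: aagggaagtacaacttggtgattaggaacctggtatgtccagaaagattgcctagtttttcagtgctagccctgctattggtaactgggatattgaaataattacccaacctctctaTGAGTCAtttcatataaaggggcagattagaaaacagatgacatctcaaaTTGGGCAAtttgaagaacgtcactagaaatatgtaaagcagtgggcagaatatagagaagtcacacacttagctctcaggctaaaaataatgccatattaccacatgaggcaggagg
Hs3st1, chr5:40035881-40036034: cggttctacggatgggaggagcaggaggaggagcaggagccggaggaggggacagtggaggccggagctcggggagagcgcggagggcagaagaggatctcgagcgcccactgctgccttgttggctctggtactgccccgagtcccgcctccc
Mdfic, chr6:15708585-15708767: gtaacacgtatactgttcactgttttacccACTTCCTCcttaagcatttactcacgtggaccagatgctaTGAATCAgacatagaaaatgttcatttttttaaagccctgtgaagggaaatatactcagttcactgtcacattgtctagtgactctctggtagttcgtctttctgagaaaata
G530011O06Rik, chrX:166436025-166436226: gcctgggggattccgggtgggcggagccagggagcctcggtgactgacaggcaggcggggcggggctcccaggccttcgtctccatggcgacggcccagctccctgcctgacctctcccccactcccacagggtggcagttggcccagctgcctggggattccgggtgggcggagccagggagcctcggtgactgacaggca
Cd36, chr5:17345461-17345662: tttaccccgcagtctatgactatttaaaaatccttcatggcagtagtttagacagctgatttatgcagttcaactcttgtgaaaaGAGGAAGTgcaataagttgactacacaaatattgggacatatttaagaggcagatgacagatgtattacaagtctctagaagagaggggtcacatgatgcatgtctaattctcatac

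The second set was more open in host microglia. It comprises an intron nearest to 4930511A08Rik, an intergenic peak in an rRNA repeat nearest to Axin2, the promoters of the RNA-binding protein gene Nova1 and of Id4, an inhibitor of helix-loop-helix factors, and the intronic peak of Sall1 close to its start.

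4930511A08Rik, chr6:94109317-94109566: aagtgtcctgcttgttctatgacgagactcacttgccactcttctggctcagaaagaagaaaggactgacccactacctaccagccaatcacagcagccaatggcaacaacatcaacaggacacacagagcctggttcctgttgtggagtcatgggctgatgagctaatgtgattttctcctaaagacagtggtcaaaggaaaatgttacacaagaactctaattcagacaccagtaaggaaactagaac
Axin2, chr11:108873107-108873291: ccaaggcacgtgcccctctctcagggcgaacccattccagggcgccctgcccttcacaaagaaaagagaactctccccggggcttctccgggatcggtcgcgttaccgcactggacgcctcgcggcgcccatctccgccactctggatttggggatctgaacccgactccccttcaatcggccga
Nova1, chr12:47920415-47920606: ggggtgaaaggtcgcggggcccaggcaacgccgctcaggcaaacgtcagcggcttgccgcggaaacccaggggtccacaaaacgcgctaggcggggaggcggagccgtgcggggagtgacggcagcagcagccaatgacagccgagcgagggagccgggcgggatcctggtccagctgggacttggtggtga
Id4, chr13:48356211-48356359: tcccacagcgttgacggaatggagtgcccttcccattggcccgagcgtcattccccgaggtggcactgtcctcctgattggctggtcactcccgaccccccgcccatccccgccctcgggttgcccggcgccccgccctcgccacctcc
Sall1, chr8:91566702-91566891: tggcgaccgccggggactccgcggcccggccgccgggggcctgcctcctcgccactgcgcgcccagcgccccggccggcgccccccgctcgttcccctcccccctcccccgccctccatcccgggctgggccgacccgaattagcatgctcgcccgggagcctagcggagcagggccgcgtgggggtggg

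In graft cells 874 peaks were higher, which is 1.78% of all tested, and in host microglia 585, or 1.19%. A peak was called where DESeq2 gave a Benjamini-Hochberg adjusted p under 0.01 and a change above 4-fold, and 2.97% of all peaks were called in either direction. The graft-higher peaks lay nearest to 640 genes and had a median difference of 3.44, and the host-higher peaks lay nearest to 415 genes with a median of −3.69. In all 1459 called peaks the 3 graft libraries did not overlap the 3 host libraries, as was the case in 27.1% of all tested peaks. A lack of overlap at a called peak named below therefore describes it and is no further support. The lower population held at most 3 tags over its 3 libraries in 239 of the graft-higher and 240 of the host-higher peaks, so that the size of the change is poorly bounded there. With the mouse entered as a block, 525 graft-higher and 354 host-higher peaks were called. A call is said to have held where it stayed with this block and without each of the 6 libraries in turn.

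Called peaks were rare at promoters and became more frequent with distance from a gene. Among 11966 promoter peaks 51 were higher in graft cells (0.426%) and 59 in host microglia (0.493%). Introns held 359 graft-higher (1.96%) and 244 host-higher peaks (1.33%) of 18336. In intergenic DNA 442 (2.76%) and 246 (1.54%) of 16008 peaks were called. Graft-higher peaks outnumbered host-higher ones in these 2 classes and at transcript ends (10 and 5 of 718). Exons stood the other way, with 7 graft-higher (0.744%) and 19 host-higher (2.02%) peaks of 941. All 7 called peaks in 5′ UTRs (of 544) were host-higher. Within 1 kb of a transcription start 56 graft-higher (0.385%) and 71 host-higher (0.488%) of 14562 peaks were called. Between 100 and 500 kb the shares were 4.83% and 4.00% of 3476 peaks, and beyond 500 kb 9.82% and 14.3% of 112 peaks. The median GC content was 44.0% in graft-higher peaks, 51.0% in host-higher peaks and 52.5% in all tested peaks, and its part in the calls was not tested, except that a GC correction together with the block left 352 and 345 called peaks.

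**Figure D1:**
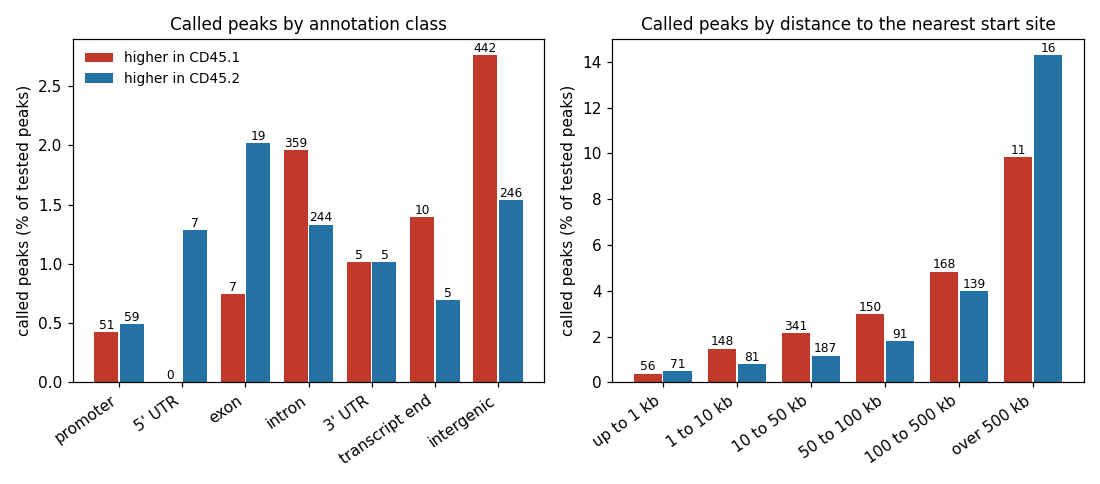
Percentage of tested peaks called higher in graft cells (CD45.1) or host microglia (CD45.2) after LPS, by annotation class (left) and by distance to the nearest transcription start (right), with the number of called peaks on each bar. Promoters sit below 0.5% in both directions, and the share rises with distance up to 9.82% and 14.3% beyond 500 kb.

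Most genes with a called peak had a single one (500 genes with a graft-higher and 329 with a host-higher peak), while at 17 genes peaks of both directions were called. Of the graft-higher peaks, 11 lay nearest to Trps1, which encodes a GATA-type transcriptional repressor, out of 35 tested peaks there, and all 35 were higher in graft cells. The called peaks were spread over 635.5 kb. Its intronic peak at chr15:50611305-50611466 had 29.1, 49.6 and 49.1 normalized tags in graft and 12.3, 5.23 and 9.5 in host libraries. The lowest graft library was above the highest host library, and the log2 difference was 2.29 (SE 0.44, adjusted p = 2.94e-05). Only 6 of the 11 calls stayed with the block, and leaving out any of the 6 libraries moved the count by over 1.5 times, to between 1 (without the host library of mouse 2) and 7.

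Mdfic, which encodes an inhibitor of MyoD-family factors, had 8 graft-higher peaks of 18, within 330.3 kb. The intronic peak whose sequence is printed, 38015 bp from the start of Mdfic, held 109, 120.0 and 89.6 tags in graft and 10.5, 8.72 and 11.9 in host libraries, a difference of 3.34 (SE 0.34, adjusted p = 1.09e-18). This call held, and 4 of the 8 did. The count was 5 with the block, 4 without the graft library of mouse 3, and 5 without the host library of mouse 2 or of mouse 3. A second intronic peak, 7093 bp from the start, reached 27.5, 54.8 and 50.0 tags in graft and 7.01, 4.36 and 11.9 in host libraries.

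Dach1, a transcriptional cofactor of the Ski family, had 8 graft-higher peaks of 10 tested over 485.2 kb. The intergenic peak at chr14:98159193-98159428 held 26.7, 43.1 and 17.9 tags in graft libraries and 0 in all 3 host libraries, at least 33.1-fold more when the host group is set to 3 tags. Summed over all its peaks, the Dach1 difference was 4.29. Without the host library of mouse 2 or of mouse 3 the number of called peaks fell to 4 and 3.

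Serpinb2, which encodes plasminogen activator inhibitor 2, a protein that macrophages make on LPS exposure, had 5 graft-higher peaks of 7 within 24.04 kb. The peak at −14436 bp held 91.4, 146 and 132 tags in graft libraries and 1.75, 0 and 5.34 in host libraries, and graft cells were higher by 5.51 (SE 0.73, adjusted p = 6.54e-11). A second peak in its intron held 24.3, 23.5 and 18.9 tags against 0 in every host library, at least 25.2-fold more. The count was 3 without the graft library of mouse 1 or the host library of mouse 2, and 2 without the host library of mouse 3.

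Gm9733 had 9 graft-higher peaks of 11, with a summed difference of 3.26. Its leading peak, at 47180 bp, held 48.5, 54.8 and 56.6 tags in graft and 8.76, 2.62 and 4.75 in host libraries. The 9 calls became 3 without the host library of mouse 2 or of mouse 3, and 5 without the graft library of mouse 2 or of mouse 3. Mir6388 was the nearest gene of 6 graft-higher peaks of 7, the leading one at 383648 bp with 42, 62.6 and 77.4 tags in graft and 0, 0 and 0.594 in host libraries, a ratio of 202 (95% exact counting interval 35.8 to 8027). All 6 stayed with the block and 3 stayed without the host library of mouse 2. Sema6d, a transmembrane semaphorin, had 5 graft-higher peaks of 15, and the peak at 31103 bp held 39.6, 62.6 and 34 tags in graft and 0 in all host libraries, at least 51.5-fold more. The Sema6d count was 3 with the block and 2 without the graft library of mouse 2 or the host library of mouse 3. It was 3 without the host library of mouse 1 or of mouse 2.

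The remaining graft-higher loci with 5 called peaks each were Mir7661 (of 12 tested), Gm13498 (of 11) and 4930459C07Rik (of 28). At Mir7661 the leading peak had 63.1, 67.8 and 46.2 tags in graft and 5.25, 5.23 and 6.53 in host libraries, and 3 calls stayed with the block. Its count was 2 without mouse 2 of either population and 3 without the graft library of mouse 1, the graft library of mouse 3 or the host library of mouse 3. At Gm13498 the peak at −221730 bp had 53.4, 54.8 and 49.1 against 7.01, 3.49 and 10.7, and the 5 calls became 3 without the graft library of mouse 3, the host library of mouse 2 or the host library of mouse 3. The 4930459C07Rik locus was the least uniform, with 22 of 28 peaks higher in graft cells and a summed difference of 0.49. There 1 call stayed with the block, and 1 or 2 were called without any 1 of the 6 libraries.

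Graft-higher calls at single peaks included 3 with a small adjusted p. An intergenic peak at −25317 bp from the collagen gene Col19a1 held 210.2, 269 and 330.2 tags in graft and 24.5, 12.2 and 11.3 in host libraries, a difference of 4.23 (SE 0.30, adjusted p = 1.83e-41), the smallest adjusted p among graft-higher intergenic peaks. The Stap1 intron had 125, 145 and 126 against 10.5, 10.5 and 22.6 tags (log2 difference 3.06, SE 0.31, adjusted p = 3.26e-19). Near G530011O06Rik, a peak annotated as a transcript end had 85.7, 93.9 and 92.5 against 0, 0.872 and 2.97 tags (log2 difference 5.71, SE 0.65, adjusted p = 5.78e-15). These 3 calls held. In the 3′ UTR class the leading graft-higher peak, near Sorbs3, had 19.4, 15.7 and 22.6 against 0, 0.872 and 1.78 tags, and its call was lost without the host library of mouse 2 or of mouse 3.

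On the host side, 11 of 11 tested peaks nearest to Sall1 were called, over 529.3 kb. The intronic peak whose sequence is printed had 6.47, 13.05 and 4.72 tags in graft and 63.1, 45.4 and 45.12 in host libraries, a difference of −2.71 (SE 0.44, adjusted p = 2.46e-07). Graft values stayed above 0 in every library at this peak. With the block 5 of the 11 were called, and the count ranged from 3 (without the graft library of mouse 1 or the host library of mouse 2) to 5 (without the host library of mouse 3) when any library but the host library of mouse 1 was left out.

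Csmd3, a large transmembrane protein with CUB and sushi domains, had 9 host-higher peaks of 15 spread over 1004 kb. Its leading intronic peak held 3.23, 2.61 and 3.77 tags in graft and 59.6, 36.6 and 36.8 in host libraries (log2 difference −3.73, SE 0.58, adjusted p = 5.37e-08). A promoter peak of the same gene had 6.47, 5.22 and 4.72 against 56, 22.7 and 32.1. The count was 2 without the library of mouse 1 of either population, and 4 without the graft library of mouse 2, the graft library of mouse 3 or the host library of mouse 2.

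Klf12, a Krüppel-like transcriptional repressor, had 9 host-higher peaks of 12. The peak at −61486 bp held 9.7, 7.83 and 2.83 tags in graft and 52.5, 41 and 45.7 in host libraries. With 4 calls without the graft library of mouse 1 and 5 without that of mouse 2 or the host library of mouse 2, Klf12 was steadier than Csmd3 by these counts. Rxrg, which encodes the retinoid X receptor gamma, had 5 host-higher peaks of 9, of which 4 held. Its 5′ UTR peak had 0 tags in every graft library and 35, 29.7 and 24.9 in host libraries, at least 30.5-fold more in host cells.

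Magi1, a scaffold protein of cell junctions, had 8 host-higher peaks of 15. At its promoter graft libraries held 13.7, 7.83 and 18.9 tags and host libraries 59.6, 60.2 and 57, a difference of −2.09 (SE 0.36, adjusted p = 1.88e-06). The count was 5 without the graft library of mouse 1 or of mouse 2. 4930511A08Rik, also on chromosome 6, had 5 host-higher peaks of 6, led by the printed one with 4.04, 5.22 and 2.83 tags in graft and 158, 127 and 113 in host libraries (log2 difference −5.06, SE 0.47, adjusted p = 4.07e-22). That call held, and 3 of the 5 were called without the graft library of mouse 3 or the host library of mouse 2.

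Marco, a scavenger receptor for bacteria and particles, had 6 host-higher peaks of 7 within 83.15 kb. At the peak 55277 bp from its start graft libraries held 0 tags and host libraries 28, 22.7 and 17.8, at least 23.3-fold more. Trpc4, a cation channel, had 5 host-higher peaks of 5 within 9.73 kb, all in introns. The leading one held 0, 0 and 2.83 tags in graft and 63.1, 54.1 and 60.6 in host libraries, a host-to-graft ratio of 60.0 (95% exact counting interval 20.2 to 294). Of the 5, 4 stayed with the block, but 1 was called without the graft library of mouse 3 and 2 without that of mouse 1 or of mouse 2. Celf4, an RNA-binding protein, had 5 host-higher peaks of 14, and 12 of the 14 were higher in host cells. Its leading peak had 9.7, 18.3 and 10.4 tags against 116, 82 and 66.5, and 4 of the 5 calls held. At 5330411J11Rik 5 of 6 peaks were host-higher, led by one with 0.809, 2.61 and 0.944 against 66.6, 47.1 and 38.6 tags. The count there was 3 with the block, 2 without the graft library of mouse 1, and 3 without any other library except the host library of mouse 2.

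Among promoters, the 5 graft-higher ones with the smallest adjusted p belonged to Hs3st1, Serpinb8, Dynlt1b, Clec12a and Gm5150. The Hs3st1 promoter held 76, 109.6 and 119 tags in graft and 5.25, 5.23 and 4.75 in host libraries (log2 difference 4.33, SE 0.44, adjusted p = 3.91e-19). At Serpinb8, a serine protease inhibitor, the values were 42.9, 48.3 and 51 and 1.75, 1.74 and 2.97, and at Dynlt1b, a dynein light chain, 74.4, 57.4 and 60.4 and 0, 1.74 and 0, a ratio of 111 (95% exact counting interval 30.3 to 923). Gm5150 had 27.5, 36.5 and 39.6 against 0, 0.872 and 3.56. All graft values lay above all host values at these promoters, as at every one of the 874 graft-higher calls, so this is no further support.

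The host-higher promoters were those of Garem1, Nova1, Lyplal1, Id4 and Mcts2. Garem1, an adaptor of ERK signalling, had 13.7, 11.7 and 13.2 tags in graft and 212, 167 and 91.4 in host libraries (log2 difference −3.57, SE 0.35, adjusted p = 5.98e-20). At Nova1 the values were 22.6, 31.3 and 37.7 and 235, 154 and 131 (log2 difference −2.49, SE 0.28, adjusted p = 2.22e-15). Lyplal1, a lysophospholipase-like protein, had 3.23, 3.91 and 1.89 against 80.6, 71.5 and 60.6. Id4 had 6.47, 3.91 and 3.77 against 49, 43.6 and 46.9 (log2 difference −3.26, SE 0.49, adjusted p = 2.76e-08). Mcts2 had 0 tags in all graft libraries and 42, 35.8 and 36.8 in host libraries, at least 39-fold more. The calls at these 10 promoters held. The leading host-higher peak in a 3′ UTR was near Limd1, with 11.3, 13.05 and 5.66 against 85.8, 93.3 and 74.8 tags, and held. Those of the exon class, at March4 (8.09, 19.6 and 22.6 against 98.1, 68.9 and 66.5), and of the transcript end class, at Psat1 (3.23, 7.83 and 1.89 against 31.5, 37.5 and 17.8), stayed with the block, but March4 was lost without the graft library of mouse 1, and Psat1 without the graft library of mouse 1, that of mouse 3 or the host library of mouse 2.

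For gene groups, tags were summed over all tested peaks nearest to a gene, and a gene passed at an adjusted p under 0.05 in DESeq2 with no limit on its fold. Of 15669 genes, 631 were higher in graft cells (4.03%) and 459 in host microglia (2.93%), with a median difference over all genes of −0.01. With the block 309 and 270 passed. Scaling by total tags moved the median of all genes to 0.12 and the split to 701 and 312, so a shift of a list by about 0.1 depends on the scaling. Sums rest on peaks of any distance, and their levels are not comparable between genes. Several lists hold genes that the study had already named as differing between these populations, so their shares are no independent support. A lack of overlap between libraries, where given, describes genes already chosen by their adjusted p and is no further support.

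Genes of border-associated macrophages, which populate the meninges and perivascular spaces, were the list with the most graft-higher members. Of 17 tested members 7 were higher in graft cells (41.2%, against 4.03% of all genes) and 0 in host cells, with a median of 0.63 against −0.01 over all genes. This list is no independent choice. From RNA, the study names Cd38, Mrc1, Apoe and Ms4a7 as expressed by engrafted cells and Cd36 as lowered in them by LPS. Cd36 had 342, 437 and 542 tags in graft and 162, 124 and 152 in host libraries (log2 difference 1.60, SE 0.19, adjusted p = 5.47e-14), and all 3 of its called peaks held. At the printed Cd36 peak the values were 56.6, 58.7 and 96.2 and 3.5, 6.98 and 4.16. Cd38, an ectoenzyme that consumes NAD, had 218, 236 and 206 against 35.2, 29.7 and 61.8 (log2 difference 2.32, SE 0.25, adjusted p = 2.07e-18). Its 4 called peaks became 1 without the host library of mouse 2 and 2 without any graft library or the host library of mouse 3. Clec12a, an inhibitory C-type lectin, had 125, 124 and 107 against 42.3, 39.3 and 39.2 (log2 difference 1.57, SE 0.24, adjusted p = 6.99e-09), and both of its called peaks held, including the promoter (34, 36.5 and 34.9 against 3.5, 1.74 and 2.97).

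Mrc1, the mannose receptor, passed without a called peak, at 107, 95.3 and 115 against 54.6, 52.4 and 47.5 (log2 difference 1.05, SE 0.24, adjusted p = 0.0003). Cd163, the haemoglobin–haptoglobin receptor, had 107, 119 and 109 against 59.9, 68.2 and 52.3 (log2 difference 0.90, SE 0.23, adjusted p = 0.00243), but none of its 3 called peaks stayed with the block. The endocytic adaptor Dab2 had 536, 609 and 470.2 against 423, 339 and 288 (log2 difference 0.63, SE 0.17, adjusted p = 0.00516), and 2 of its 3 called peaks held. All graft libraries lay above all host libraries at these 3 genes. The lipid carrier Apoe had 71.3, 80.7 and 42.2 against 29.9, 27.1 and 25 (log2 difference 1.26, SE 0.32, adjusted p = 0.00229). Its called promoter peak (42, 49.6 and 18.9 against 10.5, 6.98 and 5.94 tags) was lost without the graft library of mouse 1 or 2 or the host library of mouse 2 or 3. The Apoe sum rests on that peak, since with promoter peaks left out the difference was −0.01 (adjusted p = 0.996). Pf4 (1.56, adjusted p = 0.0542) and Ms4a7 (0.86, adjusted p = 0.0989) did not pass. The defining members Lyve1, Clec10a and Colec12 had no tested peak.

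Homeostatic microglia genes that passed were all higher in host cells. Of 25 members 4 were host-higher (against 2.93% of all genes) and 0 graft-higher, and the median was −0.08 (0.04 with total-tag scaling). Beside Sall1 these were its relative Sall3, the junctional adhesion gene Jam2 and the sialomucin gene Cd34. The study had named Sall1, Sall3 and Cd34 from RNA as exclusive to host microglia, so this share is no independent support. Sall3 had 50.0, 60.9 and 65.2 tags in graft and 118, 121 and 128 in host libraries (log2 difference −1.07, SE 0.23, adjusted p = 9.63e-05). Jam2 had 16.4, 21.2 and 19.2 against 74, 52.4 and 41 (log2 difference −1.53, SE 0.35, adjusted p = 0.000443). Cd34 had 42.6, 63.5 and 46.1 against 141, 101 and 77.3 (log2 difference −1.05, SE 0.27, adjusted p = 0.00278). The 3 graft libraries lay below the 3 host libraries at each of these genes. The axon guidance gene Nav3 did not pass (−1.18, adjusted p = 0.0791).

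Among 15 monocyte genes 2 were higher in graft cells (13.3%, against 4.03% of all genes), and the list had a median of 0.15. The integrin subunit Itga4 had 341, 410.1 and 434 tags in graft and 220.2, 156 and 197 in host libraries (log2 difference 1.06, SE 0.18, adjusted p = 1.93e-07), with no overlap between the populations. The NADPH oxidase subunit Cybb had 129, 168 and 115 against 74, 83.9 and 87.4 (log2 difference 0.72, SE 0.22, adjusted p = 0.0177). Of 19 disease-associated microglia genes 3 were higher in graft (15.8%, against 4.03% of all genes) and 1 in host cells (5.26%, against 2.93%). The list median was 0.32. The growth factor Igf1 had 90.1, 111 and 178 against 31.7, 22.7 and 36.8 (log2 difference 2.05, SE 0.30, adjusted p = 1.2e-09), although 1 of its 2 called peaks was lost with the block and without any library but the host library of mouse 1. The matricellular protein Spp1 had 121, 138 and 93.1 against 42.3, 28 and 25 (log2 difference 1.96, SE 0.27, adjusted p = 1.8e-10). The lowest graft library exceeded the highest host library at both. The tetraspanin Cd9 was higher in host cells, at 238, 228 and 162 in graft and 317, 351 and 277 in host libraries (log2 difference −0.59, SE 0.18, adjusted p = 0.0244).

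**Figure D2:**
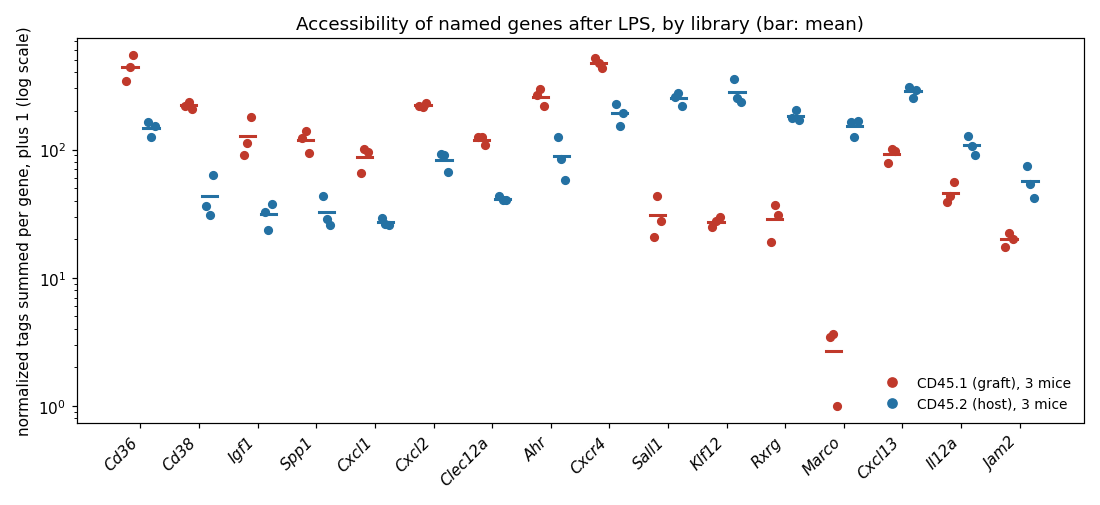
Normalized tags summed over the peaks of each gene plus 1 (log axis) in the 3 graft (CD45.1) and 3 host (CD45.2) libraries after LPS for 16 genes, with a bar at each mean. Cd36, Cd38, Igf1, Spp1, Cxcl1, Cxcl2, Clec12a, Ahr and Cxcr4 lie higher in every graft library, and Sall1, Klf12, Rxrg, Marco, Cxcl13, Il12a and Jam2 in every host library. Levels cannot be compared between genes.

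Of 22 Toll-like receptor pathway genes 1, Tlr4, was higher in graft cells (4.55%, near the 4.03% of all genes) and 0 in host cells, with a median of 0.16. Tlr4 had 278, 347 and 367 tags in graft and 261, 220.2 and 155 in host libraries (log2 difference 0.66, SE 0.20, adjusted p = 0.017). The difference came with 3 called distal peaks, led by the peak at −5590 bp (27.5, 40.4 and 34 against 3.5, 6.98 and 4.75 tags), of which 1 stayed with the block and 1 without either the graft library of mouse 2 or 3 or the host library of mouse 2 or 3. Tlr2 (0.30), Cd14 (0.42) and Myd88 (−0.20) did not pass. Of 12 NF-kappaB genes and 11 AP-1 genes 0 passed in either direction, with medians of −0.11 (0.02 with total-tag scaling) and 0.00. Nfkbia stood at 0.18, Jun at 0.18 and Fos at −0.04.

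Of 19 cytokine genes 2 were higher in host cells (10.5%, against 2.93% of all genes) and 0 in graft cells, with a median of 0.03. Il12a, the p35 subunit of interleukin-12, had 37.7, 42.3 and 54.7 tags in graft and 127, 106 and 90.3 in host libraries (log2 difference −1.24, SE 0.25, adjusted p = 6.01e-05), and Il1a had 188, 148 and 148 against 229, 307 and 256 (log2 difference −0.71, SE 0.18, adjusted p = 0.00336). Il1b (−0.02), Tnf (−0.33) and Il6 (−0.28) did not pass. Chemokine genes split, with 2 of 22 higher in graft (9.09%, against 4.03% of all genes) and 1 in host cells (4.55%, against 2.93%). The list median was −0.04, and 0.09 with total-tag scaling. The neutrophil attractants Cxcl1 and Cxcl2 were the graft-higher members. Cxcl1 had 64.7, 101 and 94 tags in graft and 28.2, 25.3 and 25 in host libraries (log2 difference 1.73, SE 0.29, adjusted p = 3.05e-07). Cxcl2 had 219.6, 214 and 230.3 against 91.6, 89.1 and 65.4 (log2 difference 1.46, SE 0.20, adjusted p = 4.04e-11). The Cxcl2 call at −6303 bp (38.8, 47 and 52.8 against 3.5, 1.74 and 1.78 tags) held, while both Cxcl1 peaks were lost without the graft library of mouse 2 or of mouse 3, and 1 of them with the block and without the host library of mouse 2 or of mouse 3. Cxcl13, a B cell attractant, was host-higher at 77, 101 and 96.9 against 307, 253 and 289 (log2 difference −1.63, SE 0.19, adjusted p = 1.91e-15) without a called peak.

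Of 14 chemokine receptor genes 1 was higher in each population (7.14%, against 4.03% graft-higher and 2.93% host-higher of all genes, median 0.13). Cxcr4, the receptor of Cxcl12, had 513, 476 and 435 tags in graft and 227, 152 and 193 in host libraries (log2 difference 1.33, SE 0.17, adjusted p = 2.08e-12) over 18 peaks, none of whose 3 calls stayed with the block. The atypical receptor Ackr3 rests on 1 peak with 0.809, 0 and 0 tags in graft and 12.3, 8.72 and 11.9 in host libraries, and that peak call was lost with the block and without each library. Interferon-stimulated genes had 2 graft-higher members of 24 (8.33%, against 4.03% of all genes), and a median of 0.22. These were the antiviral genes Rsad2, with 143, 172 and 199.6 against 109, 86.5 and 117 tags (log2 difference 0.71, SE 0.21, adjusted p = 0.0134), and Mx2, with 129, 142 and 140.1 against 72.2, 83.9 and 105 (log2 difference 0.62, SE 0.21, adjusted p = 0.0496). Of 10 MHC class II genes 0 passed in either direction (median −0.32).

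Receptors for particles and pathogens went both ways. Of 13 scavenger receptor genes Cd36, Mrc1 and Cd163 were graft-higher (23.1%, against 4.03% of all genes) and Marco host-higher (7.69%, against 2.93%). The list median was −0.06, and 0.08 with total-tag scaling. The Marco sums were 2.46, 2.65 and 0 in graft and 162, 124 and 167 in host libraries. Of 17 C-type lectin and paired receptor genes 4 were graft-higher (23.5%, against 4.03% of all genes) and 1 host-higher (5.88%, against 2.93%). The list median was 0.00. Beside Clec12a, the graft-higher members were the neighbouring dectin-2 family genes Clec4d, Clec4e and Clec4n. Clec4d had 113, 146 and 143 tags in graft and 52.8, 48.1 and 63 in host libraries (log2 difference 1.27, SE 0.23, adjusted p = 2.89e-06). Clec4e, the receptor Mincle, had 24.6, 41 and 46.1 against 10.6, 6.99 and 14.3 (log2 difference 1.77, SE 0.43, adjusted p = 0.00153). Clec4n, dectin-2 itself, had 50.8, 50.3 and 48 against 28.2, 22.7 and 16.6 (log2 difference 1.21, SE 0.33, adjusted p = 0.00627). No graft library overlapped a host library at these genes. The host-higher member Cd209a has a single tested peak, in an rRNA repeat.

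Among 13 factors that the study singled out from RNA of related samples, which are no independent choice, 4 were higher in each population. This is 30.8%, against 4.03% graft-higher and 2.93% host-higher of all genes (median −0.04, and 0.08 with total-tag scaling). The graft-higher ones were the ligand-activated receptors Ahr, Rara and Esr1 and the factor Runx3, and the host-higher ones Sall1, Klf12, Rxrg and Sall3. Ahr, which senses aromatic compounds, had 264, 294 and 217 tags in graft and 125, 83.9 and 57 in host libraries (log2 difference 1.60, SE 0.24, adjusted p = 2.08e-09). The retinoic acid receptor Rara had 199, 171 and 152 against 77.5, 85.6 and 90.3 (log2 difference 1.03, SE 0.20, adjusted p = 2.53e-05). Differences at the oestrogen receptor Esr1 and at Runx3 were smaller. Esr1 had 109, 108 and 144 against 95.1, 60.3 and 58.2 (log2 difference 0.81, SE 0.24, adjusted p = 0.0162) and Runx3 275, 159 and 165 against 118, 128 and 121 (log2 difference 0.71, SE 0.22, adjusted p = 0.0249). At Ahr 4 distal peaks were called, and the one at −18352 bp held 8.09, 18.3 and 13.2 tags against 0 in every host library, at least 15-fold more. Of these 4, 3 stayed with the block, 2 without the graft library of mouse 2 or of mouse 3, and 1 without the host library of mouse 2 or of mouse 3. The Rara promoter (25.9, 26.1 and 26.4 against 1.75, 3.49 and 6.53) was lost without the host library of mouse 2.

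Of 19 challenge genes that the study named from RNA 5 were graft-higher (26.3%, against 4.03% of all genes) and 2 host-higher (10.5%, against 2.93%), with a median of 0.09. These genes are no independent choice either. The study also showed ATAC-seq peaks at Marco and Spp1 after LPS and at Sall1 at rest. The graft-higher ones were Cd36, Spp1, Clec4e, the sialic acid enzyme Cmah and the acid-sensing receptor Gpr65, and the host-higher ones Marco and Sall1. Cmah had 84.4, 83.4 and 78.7 against 24.7, 19.2 and 21.4 (log2 difference 1.94, SE 0.29, adjusted p = 3.76e-09) and Gpr65 219.6, 196 and 242 against 132, 135 and 121 (log2 difference 0.77, SE 0.18, adjusted p = 0.000727). The study's RNA responses of these genes differ in direction. It reports Cd36 and Cmah as lowered by LPS in graft cells, and Gpr65 as induced in host microglia only, whereas Gpr65 accessibility was graft-higher. A response of RNA and a contrast of accessibility after LPS are unlike measures. Blood stem cell factors had 1 graft-higher member of 11 (Runx3, 9.09%, against 4.03% of all genes). Their 2 host-higher members were Gata2 (−1.57) and Meis1 (−0.62), which is 18.2% against 2.93% of all genes, and the median was −0.21. Of 12 genes shared by macrophages 0 passed in either direction (median −0.15).

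**Figure D3:**
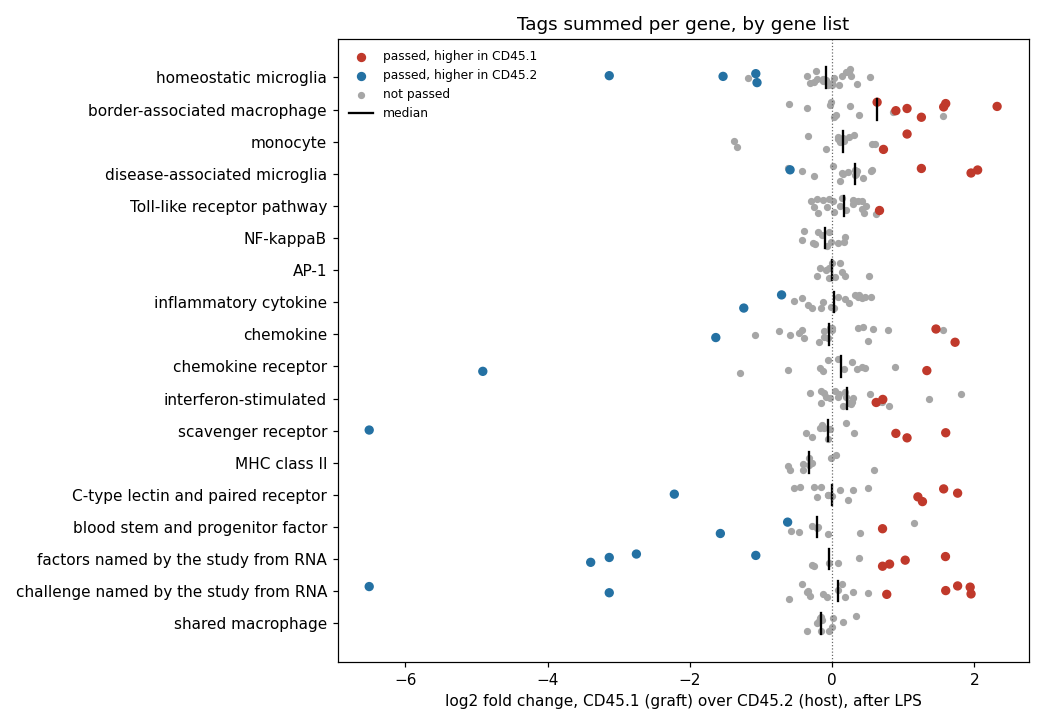
Log2 difference between graft (CD45.1) and host (CD45.2) summed tags after LPS for each tested gene of 18 lists, coloured where the adjusted p was under 0.05, with a black bar at each list's median. Border-associated macrophage genes have 7 coloured points on the graft side, and NF-kappaB, AP-1, MHC class II and shared macrophage genes have none.

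Several of these gene calls needed particular libraries or the fit without a block (DESeq2 adjusted p in each case). With the mouse as a block, Cd163 (adjusted p = 0.0619), Apoe (0.0539), Dab2 (0.0633), Cybb (0.180), Cd9 (0.129), Tlr4 (0.166), Il1a (0.0903), Mx2 (0.260), Rsad2 (0.127), Clec4n (0.102), Meis1 (0.281), Runx3 (0.243), Esr1 (0.186) and Gpr65 (0.0529) were lost. Without the graft library of mouse 1, Cd34 (0.0518), Clec4n (0.0554), Meis1 (0.147), Mx2 (0.102) and Runx3 (0.347) were lost. Without that of mouse 2, Ackr3 (0.0726), Apoe (0.0929), Cd163 (0.0521), Cd9 (0.0755), Clec4n (0.0635), Cybb (0.307), Dab2 (0.135), Esr1 (0.0602), Il1a (0.0701), Meis1 (0.254), Mx2 (0.249), Rsad2 (0.100) and Tlr4 (0.154) were lost. Without that of mouse 3, Ackr3 (0.0767), Cd209a (0.0601), Cd9 (0.306), Clec4e (0.0572), Esr1 (0.254), Il1a (0.0656), Mx2 (0.227), Rsad2 (0.217) and Tlr4 (0.190) were lost. Without the host library of mouse 1, Cybb (0.0509), Meis1 (0.0595), Mx2 (0.136) and Runx3 (0.0519) were lost. Without that of mouse 2, Cd209a (0.123), Cd9 (0.343), Clec4e (0.0659), Clec4n (0.0681), Cybb (0.140), Dab2 (0.0964), Esr1 (0.263), Il1a (0.167), Meis1 (0.294), Mx2 (0.342), Rsad2 (0.265), Runx3 (0.142) and Tlr4 (0.104) were lost. Without that of mouse 3, Apoe (0.0552), Cd163 (0.0749), Clec4n (0.176), Cybb (0.0678), Dab2 (0.0785), Esr1 (0.225), Meis1 (0.0785), Runx3 (0.126) and Tlr4 (0.219) were lost. With total-tag scaling Cd9 (0.238), Il1a (0.176), Meis1 (0.323) and Mx2 (0.0681) were lost. Cd36, Cd38, Clec12a, Mrc1, Itga4, Igf1, Spp1, Cxcl1, Cxcl2, Cxcl13, Cxcr4, Il12a, Ahr, Rara, Cmah, Clec4d, Gata2, Klf12, Rxrg, Marco, Sall1, Sall3 and Jam2 passed in each of these fits.

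Genes that mark other cells of the brain or blood were read in the same way, beside the same shares over all genes (4.03% graft-higher and 2.93% host-higher). Neutrophil markers, with no tested peak at Mpo, Retnlg and Ngp, summed to 120.4 to 162 normalized tags in graft and 123 to 209 in host libraries, and 0 of 8 passed. Of 5 tested lymphocyte markers (of 12, with no tested peak at Cd3e, Cd3g, Cd8a, Cd79a, Nkg7 or Gzmb, among others) Ms4a1 was graft-higher (1.22, adjusted p = 0.0485). Neuron markers summed to 91.8 to 105 in graft and 128 to 204 in host libraries. Of 8 neuron markers, Syt1 (0 tags in every graft library and 15.9, 10.5 and 7.73 in host libraries) and Snap25 (log2 difference −2.40, SE 0.49, adjusted p = 6.07e-05) were host-higher and Map2 (log2 difference 1.80, SE 0.48, adjusted p = 0.00431) graft-higher. Astrocyte markers summed to 461 to 549 in graft and 550 to 666 in host libraries, with Slc1a3 host-higher (log2 difference −0.89, SE 0.17, adjusted p = 1.83e-05) and Gja1 graft-higher (log2 difference 0.92, SE 0.22, adjusted p = 0.000765) of 5 tested and no tested peak at Aqp4 or Sox9. Mog of 5 oligodendrocyte markers (no tested peak at Olig2 or Sox10, among others) and Cdh5 of 5 endothelial markers (none at Tek) were host-higher, by −1.04 (SE 0.28, adjusted p = 0.00504) and −3.39 (SE 0.47, adjusted p = 5.58e-11). With the mouse as a block the calls of Ms4a1 (adjusted p = 0.323), Map2 (0.0703) and Mog (0.0512) were lost. Ms4a1 was also lost without each of the 6 libraries in turn, Map2 without mouse 2 or mouse 3 of either population, and Mog without the graft library of mouse 1 or 3 or the host library of mouse 2. The neuron and astrocyte sums were lower in graft cells, in which Sall1 and the host-higher loci are also lower, and their part in these differences was not tested.

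Repeats were examined after the peak values had been seen. Of 27 tested peaks annotated to rRNA repeats, on 14 chromosomes, 17 were host-higher (63.0%, against 1.19% of all peaks) and 0 graft-higher. The median was −2.40 beside −0.01 over all peaks. Their tags summed to 185, 277 and 182 in graft and 958, 1266 and 863 in host libraries, and the printed peak near Axin2 held 19.4, 22.2 and 17 against 102, 148 and 119.9. The 18 peaks in long terminal repeats of the RLTR44A and RLTR44B families had 14 host-higher and 0 graft-higher members (median −3.45). The host-higher share was 66.7% in RLTR44A and 88.9% in RLTR44B, against 1.19% of all peaks. Sums were 171, 175 and 136 in graft and 1131, 794 and 603 in host libraries. In contrast 7 of 22 peaks in the DNA transposon URR1B were graft-higher (31.8%, against 1.78% of all peaks) and 1 host-higher (4.55%, against 1.19%), with a median of 1.33. Counts for these 3 sets with the block or without single libraries are not given. Copies of a repeat share sequence, and the rule for reads that map to several copies was not given in the sources used here.

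Short sequence patterns were counted in the called peaks. In the central 200 bases, the AP-1 pattern TGANTCA was found in 32.6% of graft-higher, 16.1% of host-higher and 13.7% of all tested peaks. The CEBP pattern TTGCNNAA stood in 25.3%, 12.99% and 12.3%, the RUNX pattern TGTGGTT in 10.9%, 4.27% and 5.73%, and an interferon-regulatory factor pattern (AANNGAAA) in 33.2%, 16.6% and 20.5%. The PU.1 pattern GAGGAAGT was spread more evenly, at 10.5%, 9.74% and 8.97%. AP-1 with a spacer of 2 bases (TGANNTCA) was in 13.8%, 14.9% and 9.79%, the E-box CACGTGA in 1.72%, 3.76% and 3.07%, and the NF-kappaB pattern GGGANNTTC in 3.55%, 3.42% and 3.49%. Both strands were searched and matches to different patterns may overlap. The shares are descriptions without a test, and most called peaks are distal (TGANTCA was in 16.8% of all non-promoter and 4.00% of all promoter peaks). Of all non-promoter peaks, the CEBP pattern was in 14.5%, the RUNX pattern in 6.81% and the interferon-regulatory factor pattern in 23.8%. Median GC content was 44.0% in graft-higher, 51.0% in host-higher and 52.5% in all tested peaks. The shares are not matched for GC, and its part in them was not tested.

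The same populations in untreated mice (4 to 6) were read at peaks of the untreated table that overlapped a peak of the LPS table by at least 50% of both. Of the 874 graft-higher peaks 526 had such a partner, all 526 pointed the same way, and 509 (96.8%) passed an adjusted p under 0.05 in DESeq2, against 8.71% of all 37541 matched peaks. Of the 585 host-higher peaks 415 were matched, all 415 pointed the same way and 406 (97.8%) passed, against 5.4% of all matched peaks. None passed in the opposite direction. The full call, with the 4-fold limit, was met at rest by 464 and 370. Median differences after LPS and at rest were 3.42 and 4.05 for the graft-higher and −3.51 and −3.40 for the host-higher peaks. The 348 and 170 unmatched peaks had fewer tags (median raw totals of 64.5 and 60.5, against 80 and 83 in matched peaks), and their state at rest was not read. The graft library of mouse 6 stood lowest at Sall1, with 4.36 tags at the peak 1265 bp from the start, beside 16.8 and 32.9 in the graft libraries of mice 4 and 5 and 148 to 163 in the host libraries.

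**Figure D4:**
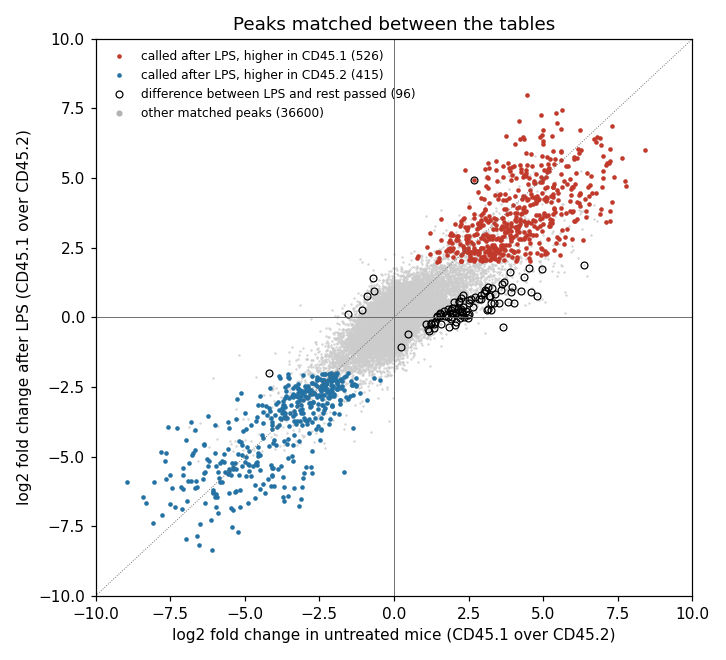
Log2 difference between graft (CD45.1) and host (CD45.2) in untreated mice (x) and after LPS (y) for the 37541 matched peaks, with 526 called graft-higher after LPS in red, 415 called host-higher in blue, the others in grey and black circles around the 96 peaks with a significant difference between both contrasts. The called peaks lie to the upper right and the lower left of the origin.

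To ask where LPS altered the contrast itself, all 12 libraries were fitted with an interaction of population and treatment. Treatment and table go together, since the peaks of each table were called, merged and counted separately. Peaks were wider after LPS (median 172 against 131 bases), and untreated libraries were deeper, at 8392877.5 to 9107770 tags. An effect common to both populations therefore cannot be read, whereas the interaction compares the populations within each table. Whether peak width or depth bears on the interaction was not tested. Of 27825 peaks with an adjusted p, 96 passed (0.345%), 89 of them with a lower graft-to-host ratio after LPS (negative) and 7 with a higher one. With the mouse as a block 51 passed. The fewest, 40, remained without the host library of untreated mouse 5, and 56 without the graft library of untreated mouse 6.

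The 89 negative peaks were mostly sites that were more open in graft than in host cells at rest. In untreated mice 88 of them, against 8.71% of all matched peaks, were graft-higher at an adjusted p under 0.05. Their median difference was 2.31 at rest and 0.30 after LPS, when 12 were still graft-higher, 1 was host-higher and 0 met the peak call. Since the 89 were chosen by the interaction in these same libraries, the values partly restate that choice and are no separate support. Normalized over all 12 libraries, the median over these peaks of the graft mean was 49.9 and that of the host mean 8.52 tags at rest, and 72.1 and 57.8 after LPS. Levels are given side by side here and below, and only the contrast within each state is read from them.

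Examples were taken after the values had been seen. Tlr2, the receptor of bacterial lipoproteins, had a peak at −43658 bp with 67.8, 55.1 and 118 tags in graft and 15.2, 11.1 and 16.5 in host libraries at rest. After LPS the same peak held 220.3, 258 and 193 in graft and 154, 152 and 159 in host libraries, an interaction of −1.97 (SE 0.36, adjusted p = 0.00011). Every graft library lay above every host library in both states, by a smaller ratio after LPS.

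At the promoter of Lilrb4a, an inhibitory receptor of myeloid cells, graft libraries had 53.5, 58.8 and 57.3 tags at rest and host libraries 13.1, 12.6 and 11. After LPS these were 58.6, 70.0 and 79.7 and 80.7, 68.2 and 51.6, so that the populations overlapped (interaction −2.12, SE 0.38, adjusted p = 7.71e-05). The intergenic peak near Ms4a4d, a tetraspan protein gene, had 26.8, 25.7 and 36.5 tags in graft and 2.18, 1.05 and 3.85 in host libraries at rest, and 19.9, 35 and 11.2 and 20.2, 26.5 and 32.4 after LPS (interaction −4.00, SE 0.68, adjusted p = 3.03e-05). These 3 interactions passed with the block and without each of the 12 libraries in turn. The other 8 promoters among the 89 belonged to Sqrdl, Klra2, Aqp9, Hal, Apoc1, Aoah, Ifi211 and the stress factor gene Atf3.

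Border-associated macrophage genes were also among these sites, beside peaks of theirs that stayed graft-higher. An intronic peak 8874 bp from the start of Cd36 had 39.8, 30.6 and 47.3 tags in graft and 2.18, 0.527 and 3.3 in host libraries at rest, and 70.3, 89.4 and 130.1 and 35.3, 25.3 and 42.9 after LPS (interaction −2.86, SE 0.63, adjusted p = 0.00321). All host libraries lay below every graft library in both states. At Cd38 an intronic peak had 41.7, 29.4 and 34.4 against 0, 0.527 and 0.549 at rest and 60.9, 66.1 and 60.2 against 15.1, 8.84 and 24.5 after LPS (interaction −4.47, SE 1.09, adjusted p = 0.0157), and at Dab2 an intronic peak 37.3, 22 and 34.4 against 10.9, 3.16 and 5.49 and then 110.2, 109 and 109 against 129, 85.9 and 74.4 (interaction −2.20, SE 0.45, adjusted p = 0.000727). The Cd36 and Dab2 interactions passed with the block and the Cd38 interaction did not.

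In the other direction, an intronic peak of the glutamate transporter gene Slc1a3 had 7.47, 5.51 and 2.87 tags in graft and 103, 92.7 and 104 in host libraries at rest, and 8.2, 11.7 and 14 and 37.8, 45.5 and 46.4 after LPS (interaction 2.23, SE 0.53, adjusted p = 0.0104). The populations did not overlap in either state, but the distance shrank. The printed peak near G530011O06Rik widened its distance, from 142, 134 and 165 against 25, 22.7 and 23.1 at rest to 130.1, 179 and 129 against 2.52, 7.58 and 3.5 (interaction 2.28, SE 0.52, adjusted p = 0.00682), the only interaction peak that was also called after LPS. It passed with the block, and the Slc1a3 interaction did not. The printed G530011O06Rik sequence holds nearly the same stretch of bases at its start and at its end. How reads that map to several places were treated was not given in the sources used here.

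**Figure D5:**
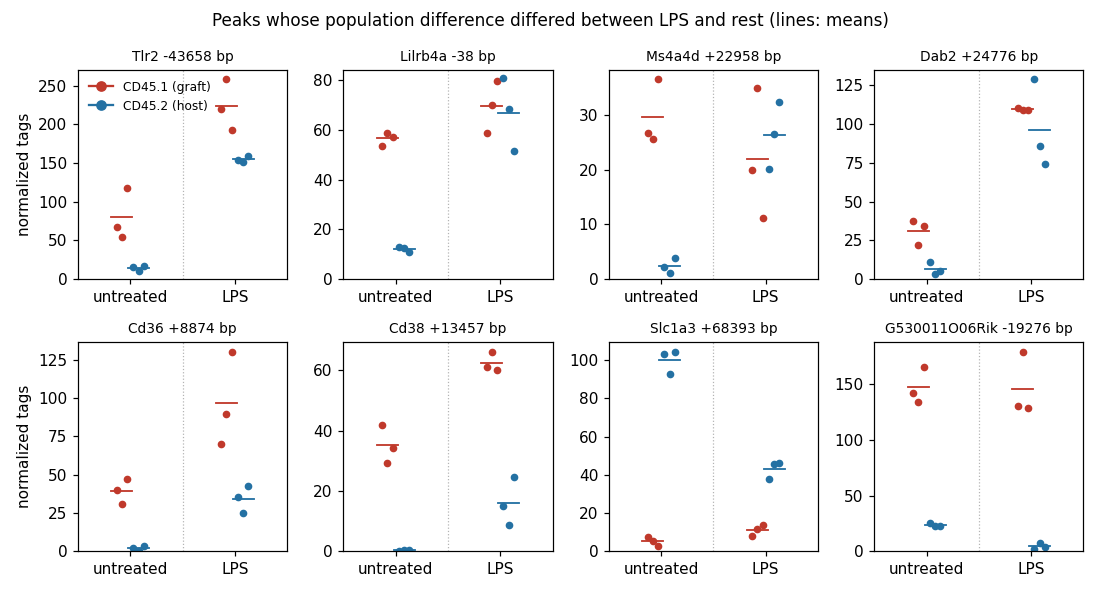
Tags normalized over all 12 libraries in untreated (mice 4 to 6) and LPS-treated mice (1 to 3), for graft (CD45.1) and host (CD45.2) libraries at 8 peaks whose contrast differed between both states. Short lines are group means. At Tlr2, Lilrb4a, Ms4a4d, Dab2, Cd36 and Cd38 the graft-to-host ratio is smaller after LPS than at rest, at Slc1a3 the host excess is smaller, and at G530011O06Rik the graft excess is larger. Levels of the states come from separate tables.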

How the data were processed

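ATAC-seq libraries were compared between CD45.1 graft and CD45.2 host brain macrophages, 3 per population after LPS and 3 untreated. The submitters' processing notes name bcl2fastq 2.17.1.14, Bowtie2, Picard 1.108, HOMER and genome build mm9. Per the study's methods, peaks were called with HOMER and filtered by reproducibility between replicates. The deposited tables hold, per merged peak and library, the tags that the authors counted with HOMER without normalization, as estimated counts in steps of 0.5, with the nearest gene and annotation. Each treatment has its own table, and 0 columns of values were left without a sample.

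Here the expected counts were rounded and fitted with DESeq2 1.42.0 in R 4.3.3 (Wald test, population as the only term, Benjamini-Hochberg adjustment), after testing the fit on simulated data. The study's methods name DESeq2 without stating a design or test, and these were chosen here. Peaks with a count above 10, before rounding, in at least 1 library were kept. Peaks were called at an adjusted p under 0.01 and over 4-fold, and genes, by tags summed over the peaks nearest to them, at an adjusted p under 0.05. Where the lower group held 0 tags the fold is a bound against 3 tags over the group, and where it held 1 to 3 tags a ratio with an exact interval is given. Intervals and bounds cover counting error only. Genes named are the 10 with the most called peaks in each direction, the 5 leading promoters, the leading peak of each annotation class, and up to 3 passing genes per list and direction, and others are said to be chosen after their values were seen or are list members that did not pass. The values of 1 list gene that did not pass and of 1 peak with a negative interaction are not reported here. The members and lists were chosen with earlier results of these data known. The LPS and untreated tables were matched at 50% reciprocal overlap (39390 pairs) and an interaction was fitted over 12 libraries.

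The design text says that both populations were sorted from the same animal, so the numbers pair the libraries by mouse. Same-mouse deviations from the group means correlated at −0.066, 0.061 and 0.149, and the highest correlation with another mouse was 0.117, 0.0827 and −0.0114. The fit with the mouse as a block was an alternative, as were edgeR 4.0.16, TMM and total-tag scaling, other count and fold limits, a GC correction with the block, and leaving out each library.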

Additional observations from a re-analysis of the deposited data

Results flagged for a closer look

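For 29 peaks named in the text the difference between graft and host cells after LPS departed from that in untreated mice, by the interaction term of DESeq2 over 12 libraries (adjusted p under 0.05). They are 9 of the 10 negative ones with the smallest adjusted p, all 7 positive ones, all 9 at promoters, and those nearest to members of the gene lists whose values the report gives. The others of the 96 are not listed. Negative values mean a lower graft-to-host ratio after LPS.

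The 9 negative ones with the smallest adjusted p passed with the mouse as a block and without each of the 12 libraries in turn. Near the germ-cell factor gene Dppa3 the values were −2.94 (SE 0.42, adjusted p = 8.41e-08) and −2.46 (SE 0.42, adjusted p = 3.03e-05). They were −2.26 (SE 0.39, adjusted p = 3.03e-05) at A230028O05Rik, −4.00 (SE 0.68, adjusted p = 3.03e-05) near Ms4a4d, −2.80 (SE 0.49, adjusted p = 6.08e-05) near Fam49a and −2.12 (SE 0.38, adjusted p = 7.71e-05) at the Lilrb4a promoter. Near Tlr2 they were −1.97 (SE 0.36, adjusted p = 0.00011) and −1.60 (SE 0.29, adjusted p = 0.000139). Near the apolipoprotein genes Apoc4-apoc2 the value was −2.84 (SE 0.52, adjusted p = 0.000139).

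At genes of the lists, the values were −2.86 (SE 0.63, adjusted p = 0.00321) in Cd36, −2.20 (SE 0.45, adjusted p = 0.000727) in Dab2, −4.47 (SE 1.09, adjusted p = 0.0157) in Cd38, −2.23 (SE 0.58, adjusted p = 0.0334) in Cybb and −2.36 (SE 0.53, adjusted p = 0.00538) near Clec4d. Of these, Cd36 and Dab2 passed with the block and in 11 of 12 fits without 1 library. Cd38, Cybb and Clec4d did not pass with the block, and passed in 8, 3 and 10 of the 12.

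At the other promoters the values were −1.93 (SE 0.38, adjusted p = 0.000547) at Sqrdl, −3.17 (SE 0.65, adjusted p = 0.000801) at Klra2, −2.77 (SE 0.64, adjusted p = 0.00847) at Aqp9, −2.42 (SE 0.57, adjusted p = 0.00945) at Hal, −1.48 (SE 0.36, adjusted p = 0.0157) at Apoc1, −1.01 (SE 0.25, adjusted p = 0.0164) at Atf3, −1.54 (SE 0.39, adjusted p = 0.0245) at Aoah and −1.61 (SE 0.42, adjusted p = 0.0379) at Ifi211. Sqrdl, Klra2, Aqp9 and Hal passed with the block, and in 11, 12, 9 and 9 of the 12 fits without 1 library. Apoc1, Atf3, Aoah and Ifi211 did not pass with the block, and passed in 6, 6, 2 and 3.

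The positive ones were 1.40 (SE 0.30, adjusted p = 0.00228) in Dock4, 1.71 (SE 0.38, adjusted p = 0.00388) in Rufy3, 2.28 (SE 0.52, adjusted p = 0.00682) near G530011O06Rik, 2.23 (SE 0.53, adjusted p = 0.0104) in the glutamate transporter gene Slc1a3, 1.63 (SE 0.41, adjusted p = 0.0209) near St3gal1, 1.73 (SE 0.43, adjusted p = 0.0209) near Mxi1 and 2.13 (SE 0.56, adjusted p = 0.0466) in Asb4. G530011O06Rik alone among them passed with the block. Without 1 library in turn, Dock4, Rufy3, G530011O06Rik, Slc1a3, St3gal1, Mxi1 and Asb4 passed in 11, 10, 11, 9, 4, 4 and 2 of the 12 fits.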

How the results depend on the processing

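With a mean count of at least 20 required, which leaves fewer peaks to test, 146 graft-higher and 137 host-higher peaks were called, in place of 874 and 585. With the replicate block by mouse they were 525 and 354 (510 and 348 of them also called without it), and with the block and a GC correction 352 and 345. Without 1 library in turn the counts ranged from 326 to 608 and from 242 to 348. The graft-higher count moved by over 1.5 times without the graft library of mouse 1, 2 or 3 (558, 457 and 466) or the host library of mouse 2 or 3 (326 and 379). The host-higher count did so without each library, in the same order of mice 242, 312 and 289 for graft and 345, 287 and 348 for host libraries. Host-higher peaks numbered 880 with edgeR (576 shared) and 887 at an adjusted p under 0.05. Genes with the block numbered 309 and 270 (307 and 268 shared), 307 to 742 and 267 to 372 without 1 library (348, 358, 307 and 364 graft-higher genes without the graft library of mouse 2 or 3 or the host library of mouse 2 or 3, and 298 and 267 host-higher genes without the graft or host library of mouse 2), and 695 host-higher genes passed with edgeR. The interaction had 51 peaks with the block (49 shared) and 40 to 116 without 1 library, an alternative chosen after seeing the data. The share of graft-higher peaks with TGANTCA was 23.1% in a window of 100 bases and 32.6% in one of 200. The Apoe sum turned to −0.0101 (adjusted p = 0.996) without promoter peaks. TMM scaling, total-tag scaling, no count filter and a 2-fold limit left both peak counts within 1.5 times of the main ones. Of 65 named genes 43 and of 199 named peaks 81 kept direction and call in every alternative run for them. The cause of these changes was not tested.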
